A study of Mus musculus with 18 samples.

Results

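Red blood cells and blood vessels leave their own miRNAs in the RNA of any piece of tissue, and 6 mature miRNAs of that kind were followed through wildtype adrenal glands and 2 types of mouse neuroblastoma. They were taken by exact name from the 1966 mature miRNAs of the deposited table, and 6 of 6 were present. The erythroid ones are mmu-miR-451a, both strands of miR-144 (mmu-miR-144-3p and mmu-miR-144-5p) and mmu-miR-486a-5p. The endothelial ones are the strands of miR-126a, mmu-miR-126a-3p and mmu-miR-126a-5p. The species prefix is left out below.

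The series holds 18 small RNA libraries, of which 3 come from adrenal glands of wildtype mice (AG), 7 from tumors driven by an IGF2BP1 transgene (TI) and 8 from tumors driven by IGF2BP1 together with MYCN (TIM). By their labels the AG samples were CRE -, 6 TI samples were IGF2BP1 +/+, CRE + and 1 was IGF2BP1 +/-, CRE +, and all 8 TIM samples were IMP1/MYCN, CRE +, where IMP1 is another name of IGF2BP1. Both transgenes sit behind a loxP-flanked stop at the R26 locus, which an iCRE driven by the Dbh promoter removes in adrenal glands and peripheral nerves, and the IGF2BP1 transgene lacks its 3'UTR. The labels give the site as adrenal gland for 1 TI and 2 TIM tumors and as spine for 1 TIM tumor, and name no site for the rest. The study places most tumors of IGF2BP1 mice in the lower abdomen, whereas AG is adrenal gland. By their labels, site and group are thus partly confounded. The labels give no age, and do not say whether several TIM tumors came from the same mouse, so the p-values measure the spread between samples, which may share an animal. The columns of the table name the group of a library but not its sample, so genotype and site could not be tied to a value within a group.

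As background, miR-451a and miR-144 are transcribed together from a shared locus under the erythroid factor GATA1. miR-451a, whose hairpin is cut by AGO2 without Dicer, is among the most abundant miRNAs of mature red cells. miR-486 lies in an intron of Ank1, the gene of the red cell membrane protein ankyrin-1, and is also made in muscle. miR-126 lies in an intron of Egfl7, a gene of the vessel wall, and is abundant in endothelial cells, where it sustains the response to the growth factor VEGF. An adrenal gland is a richly perfused endocrine organ with a dense net of capillaries, so both kinds of miRNA belong to its normal RNA.

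The mature sequences show which of these miRNAs are separate products and which share a precursor. The sequences of 4 of the 6 are given below as RefSeq lists them on GRCm38.p6, the same assembly as mm10, with the seed (bases 2 to 8) in capitals.
miR-451a: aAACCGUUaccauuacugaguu
miR-144-3p: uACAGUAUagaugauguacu
miR-144-5p: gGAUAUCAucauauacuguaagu
miR-126a-3p: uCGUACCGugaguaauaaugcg
None of these 4 seeds is shared with another of the 1675 miRNAs of the table that had a sequence, although miR-144-3p shares bases 2 to 7 with miR-101a-3p. miR-451a lies at chr11:78073186-78073207, miR-144-3p at chr11:78073047-78073066 and miR-144-5p at chr11:78073010-78073032, all on the plus strand. The hairpins of miR-144 (chr11:78073005-78073070) and miR-451a (chr11:78073170-78073241) are separated by 99 bases. miR-126a-3p lies at chr2:26591402-26591423 on the plus strand, in a hairpin (chr2:26591357-26591429) within Egfl7, and the hairpin gene Mir486 (chr8:23142555-23142682) lies within Ank1. By the GENCODE annotation of GRCm39, both hairpins are in an intron and on the strand of these host genes.

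AG libraries had 21644743 to 23332704 reads on miRNAs, TI libraries 11802837 to 21268124 and TIM libraries 11641696 to 23435621. Values are CPM (counts scaled to the library total times its TMM factor), and the factors were 0.927 to 0.991 for AG, 0.700 to 0.934 for TI and 0.802 to 1.85 for TIM. CPM depends on this scaling. miR-148a-3p alone made up 4.19% to 6.94% of AG reads, 2.29% to 61.9% of TI reads and 6.53% to 44.2% of TIM reads. How far that share bears on the factors was not tested. The TI library in which that share was 2.29% (95% Wilson interval 2.28% to 2.29%, counting error only) stood apart from the other TI libraries and was the highest TI library for all 6 miRNAs. For the tests, limma was fitted to log2(CPM + 1) of 726 miRNAs, those reaching 1 CPM in 3 or more libraries, and p-values were adjusted after Benjamini and Hochberg. This filter kept 6 of the 6 miRNAs, and each had at least 56 reads in every library.

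The endothelial pair was far lower in both tumor types than in adrenal gland. miR-126a-3p stood at 38020, 37016 and 44387 CPM in the AG libraries. In TI its lowest, median and highest values were 1621, 2805 and 6448 CPM, and in TIM 2314, 4216 and 8581 CPM. Every tumor library was below every AG library, and the lowest AG value was 5.74 times the highest TI value and 4.31 times the highest TIM value. Mean levels of miR-126a-3p were 39808 ± 3998 CPM in adrenal gland (SD, n = 3), 3574 ± 1780 CPM in the TI tumors (SD, n = 7) and 4897 ± 2414 CPM in the TIM tumors (SD, n = 8), so AG held 11.1 times as much as TI and 8.13 times as much as TIM. On the log2(CPM + 1) scale it fell by 3.63 in TI (SE 0.46, limma adjusted p = 3.3e-06) and by 3.18 in TIM (SE 0.45, limma adjusted p = 1.3e-05). In bulk tissue, fewer endothelial cells and less of the miRNA per cell cannot be told apart.

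The opposite strand of the same hairpin, miR-126a-5p, moved in the same way at a lower level. It had 1489, 1514 and 1705 CPM in AG, from 83.6 to 288 CPM in TI (median 129) and from 114 to 362 CPM in TIM (median 185). Again no tumor library reached an AG library, the lowest AG value being 5.17 times the highest TI value and 4.11 times the highest TIM value. Its log2 fold change was -3.36 in TI (SE 0.42, limma adjusted p = 3.0e-06) and -2.97 in TIM (SE 0.41, limma adjusted p = 1.0e-05). Both comparisons rest on the same 3 AG libraries.

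These differences stand in a profile in which most miRNAs moved. Over all 726 miRNAs, 55.8% were called in TI against AG, 29.3% lower and 26.4% higher, and 51.4% in TIM against AG, 25.9% lower and 25.5% higher, at an adjusted p-value of 0.05. Of the 6 miRNAs, 2 were called in each comparison, both lower. Groups that did not overlap, with the tumors lower, were seen in 24.4% of all tested miRNAs for TI and in 22% for TIM, and in 2 of the 6 miRNAs for each. In size, the change of miR-126a-3p was the 19th lowest of 726 in TI and the 20th lowest in TIM, and that of miR-126a-5p the 27th and the 30th lowest. By abundance, miR-126a-3p held ranks 5 to 9 among all miRNAs in AG, 25 to 49 in TI and 24 to 38 in TIM. Its share of all reads went from 3.52% to 4.17% in AG to 0.139% to 0.568% in TI and 0.274% to 0.964% in TIM.

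**Figure D1:**
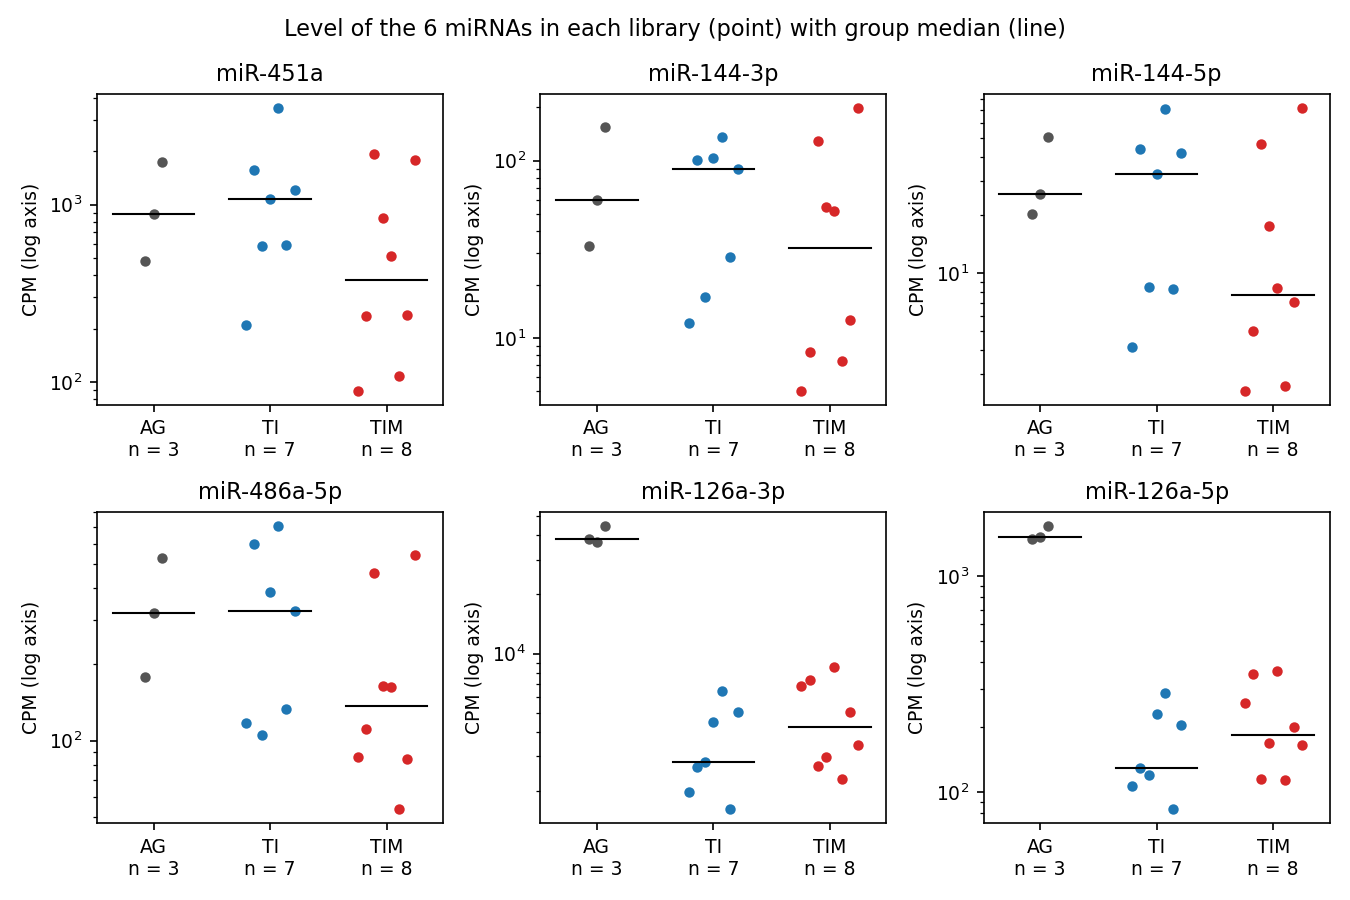
CPM of each of the 6 miRNAs on a log axis (a separate axis for each panel), with 1 point per library and a line at the group median, for AG (n = 3), TI (n = 7) and TIM (n = 8). The AG points of miR-126a-3p, at 37016 to 44387 CPM, lie above all tumor points, whereas the AG points of the 4 erythroid miRNAs lie within the range of the tumors.

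For the erythroid miRNAs the groups overlapped in every comparison, as the plot of levels by group shows, and none of the 4 passed the test. miR-451a had 483, 889 and 1736 CPM in AG. In TI it had 210, 582, 593, 1069, 1207, 1571 and 3513 CPM, and in TIM 89.6, 108, 236, 238, 510, 841, 1792 and 1926 CPM. The highest TI library exceeded all AG libraries and the lowest was below all of them, and in TIM 2 libraries were above and 4 below all AG libraries. The log2 fold change against AG was 0.01 in TI (95% interval -1.93 to 1.94, limma adjusted p = 0.99) and -1.14 in TIM (95% interval -3.04 to 0.76, limma adjusted p = 0.30). The interval for TI leaves room for several-fold changes in either direction. Without the TI library with little miR-148a-3p the TI value was -0.32 (limma adjusted p = 0.78).

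miR-144-3p, the partner of miR-451a in its cluster, was present at a lower level. It had 33.1, 60.2 and 155 CPM in AG, 12.2 to 136 CPM in TI (median 89.3) and 5.06 to 199 CPM in TIM (median 32.3). Its log2 fold change was -0.42 in TI (95% interval -2.60 to 1.75, limma adjusted p = 0.75) and -1.25 in TIM (95% interval -3.38 to 0.88, limma adjusted p = 0.32). Of the TIM libraries, 4 lay below all AG libraries and 1 above all of them.

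miR-144-5p, the opposite strand, was the least abundant of the 6. It had 20.2, 25.9 and 51.1 CPM in AG, 4.17 to 71.3 CPM in TI (median 32.5) and 2.47 to 72.2 CPM in TIM (median 7.76). A total of 6 of 8 TIM libraries lay below all AG libraries, but 1 lay above all of them, and the log2 fold change was -1.39 in TIM (95% interval -3.32 to 0.54, limma adjusted p = 0.22). In TI it was -0.53 (95% interval -2.50 to 1.44, limma adjusted p = 0.66).

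miR-486a-5p, from the ankyrin locus, had 179, 319 and 529 CPM in AG, 105 to 705 CPM in TI (median 326) and 53.6 to 542 CPM in TIM (median 137). Its log2 fold change was -0.24 in TI (95% interval -1.74 to 1.27, limma adjusted p = 0.81) and -1.03 in TIM (95% interval -2.50 to 0.45, limma adjusted p = 0.24). Against AG, 6 of 8 TIM libraries were below and 1 was above all 3 glands. The table lists miR-486b-5p, a copy read from the opposite strand of the same locus, at 0.992 to 1.09 times the level of miR-486a-5p in all 18 libraries, and how reads that match both were shared is not given in the sources used here, so the level of miR-486a-5p is uncertain by that sharing.

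TI and TIM were then compared with each other. By the study's methods the R26 locus of TIM mice held no wildtype allele and both transgenes. TIM therefore differs from the IGF2BP1 +/+ tumors of TI in its MYCN transgene and in the copies of IGF2BP1. The study also reported shorter survival in mice with both transgenes, and more adrenal and spinal tumors than with IGF2BP1 alone. Age and site may thus differ too, and the parts of all these cannot be told apart. None of the 6 was called, where 5.23% of all 726 miRNAs were, 1.79% lower and 3.44% higher in TIM. The 4 erythroid miRNAs had lower means in TIM and the endothelial pair higher ones. For miR-451a TIM differed from TI by a log2 fold change of -1.15 (95% interval -2.60 to 0.30, limma adjusted p = 0.35), and for miR-126a-3p it was 0.45 (95% interval -0.27 to 1.17, limma adjusted p = 0.45). The other erythroid values were -0.83 for miR-144-3p, -0.86 for miR-144-5p and -0.79 for miR-486a-5p, and miR-126a-5p had 0.38. With limma, 0 of the 6 had an unadjusted p under 0.05, and edgeR and DESeq2 on the recovered reads called 0 as well. With these tools the value of miR-144-3p shrank to -0.16 (edgeR) and -0.20 (DESeq2), and that of miR-451a to -0.73 and -0.76. With CPM computed without the TMM factor the endothelial pair was called, with 1.01 for miR-126a-3p (limma adjusted p = 0.040) and 0.94 for miR-126a-5p (limma adjusted p = 0.041). On that scale the median of all miRNAs lay at 0.49, and 155 of all 730 tested were called, 138 of them higher. In order of group means, miR-126a-3p was highest in AG, then TIM, then TI, with only the step from AG to the tumors beyond the spread, while miR-451a was highest in TI, then AG, then TIM, with no step beyond the spread.

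**Figure D2:**
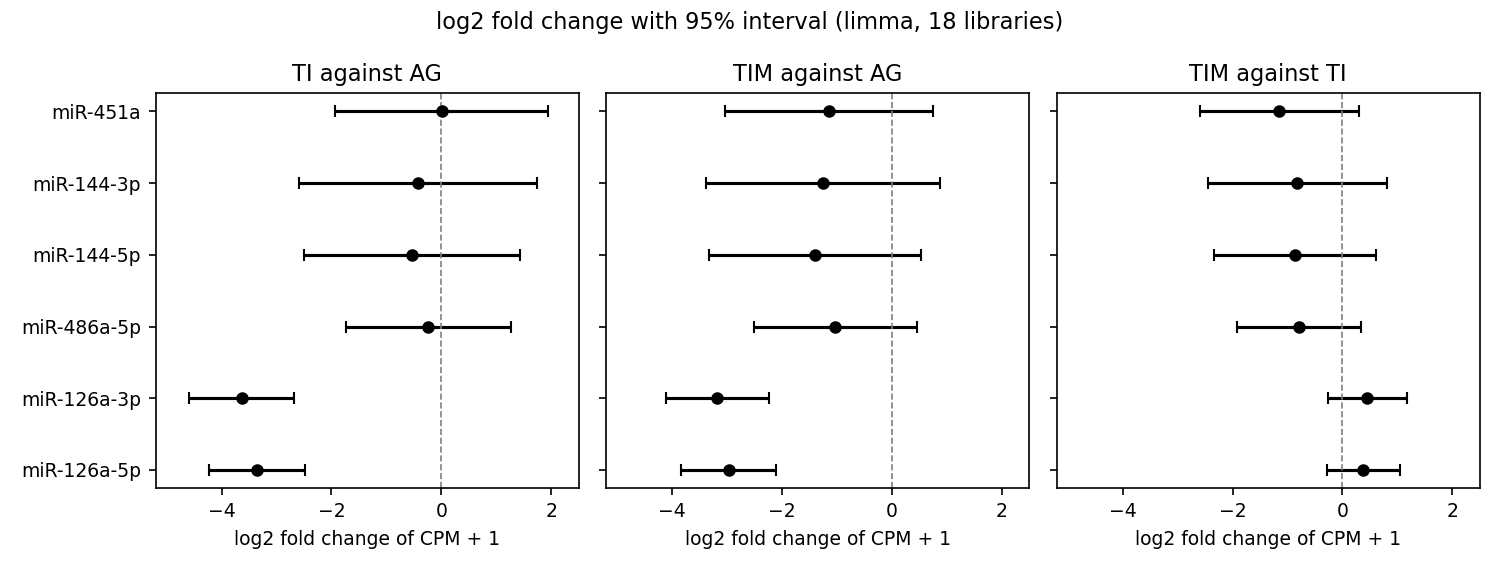
Log2 fold change of CPM + 1 for each miRNA with its 95% interval from limma, for TI against AG, TIM against AG and TIM against TI, with a dashed line at no change. The intervals of miR-126a-3p and miR-126a-5p lie below the line in both comparisons with AG, from -4.59 to -2.67 for miR-126a-3p in TI, and all other intervals cross it.

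The erythroid miRNAs varied widely between tumors of the same type. The highest library held 16.7 times as much miR-451a as the lowest in TI and 21.5 times as much in TIM, against 3.59 times in AG. For miR-144-3p these ratios were 11.2, 39.3 and 4.69. In contrast, miR-126a-3p varied 3.98 times in TI and 3.71 times in TIM, against 1.20 times in AG. Such ratios tend to grow with the number of libraries, and AG has only 3. On the log2 scale the SD of miR-451a was 0.92 in AG, 1.28 in TI and 1.70 in TIM. For miR-126a-3p it was 0.14 in AG and 0.73 in both TI and TIM. The median SD over the 400 miRNAs averaging 10 CPM or more was 0.70 in TI and 0.72 in TIM. Of these 400, 84.5% in TI and 91.25% in TIM had a smaller SD than miR-451a. The corresponding shares for miR-144-3p were 87% and 94.5%, for miR-144-5p 89% and 90.5%, and for miR-486a-5p 80% and 78.5%. For the endothelial pair they were close to the middle, with 53.75% and 50.5% for miR-126a-3p and 43.25% and 39% for miR-126a-5p.

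The erythroid miRNAs went up and down together from tumor to tumor. Within the 7 TI libraries, log2 levels of miR-451a and miR-144-3p were correlated with r = 0.91 (exact permutation p = 0.0028, adjusted 0.0040; rho = 0.89, exact p = 0.012, adjusted 0.015), and within the 8 TIM libraries with r = 0.97 (exact permutation p = 0.00025, adjusted 0.00083; rho = 0.98, exact p = 0.00040, adjusted 0.0013). For miR-451a and miR-144-5p, r was 0.95 in TI (exact permutation p = 0.00079, adjusted 0.0020) and 0.97 in TIM (exact permutation p = 0.00025, adjusted 0.00083), with rho of 0.96 (exact permutation p = 0.0028) and 0.98 (exact permutation p = 0.00040). miR-486a-5p, which is encoded on another chromosome, followed miR-451a with r = 0.89 in TI (exact permutation p = 0.0040, adjusted 0.0050) and 0.94 in TIM (exact permutation p = 0.0015, adjusted 0.0026), with rho of 0.93 (exact permutation p = 0.0067) and 0.86 (exact permutation p = 0.011). Without the 2 libraries farthest from the median of miR-451a, these 6 values of r lay between 0.88 for miR-486a-5p in TIM and 0.98 for miR-486a-5p in TI. The p-values were adjusted over 10 relations, and values from one library share its scaling.

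The same libraries held the extremes of this group. In TIM the libraries at 1792 and 1926 CPM of miR-451a were also the highest for miR-144-3p (199 and 129 CPM), for miR-144-5p (72.2 and 46.8 CPM) and for miR-486a-5p (542 and 460 CPM). The TIM library with the least miR-451a, at 89.6 CPM, was also the lowest for miR-144-3p and miR-144-5p. For miR-486a-5p another TIM library, with 108 CPM of miR-451a, was the lowest.

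The endothelial strands were likewise tied to each other, with r = 0.98 between miR-126a-3p and miR-126a-5p in TI (exact permutation p = 0.0016, adjusted 0.0026; rho = 0.93, exact p = 0.0067) and 0.97 in TIM (exact permutation p = 0.00015, adjusted 0.00083; rho = 0.98, exact p = 0.00040). Across the kinds the relation was not stable. In TI, miR-451a and miR-126a-3p had r = 0.76 (exact permutation p = 0.039, adjusted 0.043) but rho = 0.64 (exact permutation p = 0.14). Without the 2 libraries farthest from the median of miR-451a, r was 0.54. Leaving out extremes also narrows the range, so this drop cannot decide whether the relation rests on those libraries. In TIM, r was -0.34 (exact permutation p = 0.38) and rho -0.26 (exact permutation p = 0.54). The TIM libraries with the most miR-451a had 2675 and 3410 CPM of miR-126a-3p, and the one with the least had 6836 CPM. But the TIM library with the next lowest miR-451a, at 108 CPM, had 2314 CPM of miR-126a-3p, the lowest value in TIM.

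**Figure D3:**
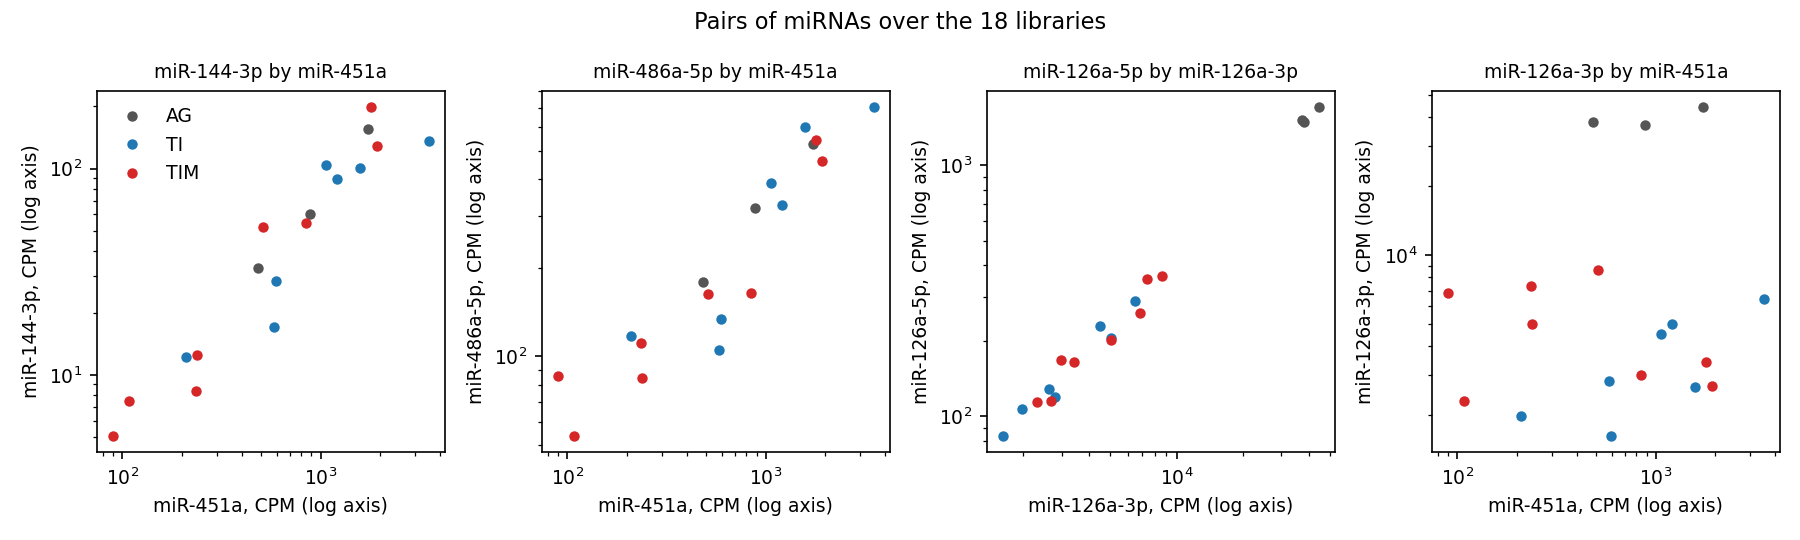
Levels of 4 pairs of miRNAs in the 18 libraries, in CPM on log axes, with 1 point per library colored by group (AG gray, TI blue, TIM red). miR-144-3p and miR-486a-5p rise with miR-451a in TI (r of 0.91 and 0.89) and in TIM (0.97 and 0.94), and no r was computed for AG. In the panel of miR-126a-3p by miR-451a the AG points lie apart at 37016 CPM and above, and the TIM points show no such rise.

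In a ratio of 2 miRNAs within a library the scaling of the library cancels, apart from the pseudocount of 1 CPM in the tested log2 ratios, which weighs on low levels such as those of miR-144. Ratios were used to set the blood signal against the vessel signal. Such a ratio compares groups and is not a count of molecules, since miRNAs are captured with unequal efficiency. miR-451a had 0.0127, 0.0240 and 0.0391 times the CPM of miR-126a-3p in AG. In TI the ratio ran from 0.106 to 0.595 (median 0.240), above all AG libraries in 7 of 7. In TIM it ran from 0.0131 to 0.720 (median 0.0534), above all AG libraries in 6 of 8. As a mean log2 ratio, TI exceeded AG by 3.64 (two-sided exact permutation p = 0.017, the smallest that this design allows, adjusted 0.125 over 15 ratio comparisons), which did not pass after adjustment. Against AG, miR-451a itself had 0.01 in TI and miR-126a-3p -3.63, so this difference restates the fall of miR-126a-3p given above. TIM exceeded AG by 2.04 (exact permutation p = 0.11, adjusted 0.33), and TIM and TI differed by -1.60 (exact permutation p = 0.082, adjusted 0.32). AG had a mean log2 ratio of -5.45 ± 0.81 (SD, n = 3), TI one of -1.81 ± 0.87 (SD, n = 7) and TIM one of -3.41 ± 2.07 (SD, n = 8).

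The ratios between strands and between erythroid miRNAs moved far less. miR-126a-3p was 25.3 ± 0.81 times miR-126a-5p in the glands (SD, n = 3), 21.2 ± 2.23 times in the TI tumors (SD, n = 7) and 22.2 ± 2.81 times in the TIM tumors (SD, n = 8). The log2 difference of this strand ratio was -0.27 for TI against AG, with no overlap (exact permutation p = 0.017, the smallest possible, adjusted 0.125), and -0.21 for TIM against AG (exact permutation p = 0.085, adjusted 0.32). miR-144-3p was 2.34 ± 0.70 times miR-144-5p in the glands (SD, n = 3), 2.56 ± 0.62 times in the TI tumors (SD, n = 7) and 2.89 ± 1.44 times in the TIM tumors (SD, n = 8). miR-451a was 13.5 ± 2.02 times miR-144-3p in the glands (SD, n = 3), 19.6 ± 8.12 times in the TI tumors (SD, n = 7) and 16.1 ± 6.04 times in the TIM tumors (SD, n = 8). For these, for miR-486a-5p over miR-451a, and for the strands of miR-126a between TIM and TI, exact permutation p-values were 0.25 or more.

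**Figure D4:**
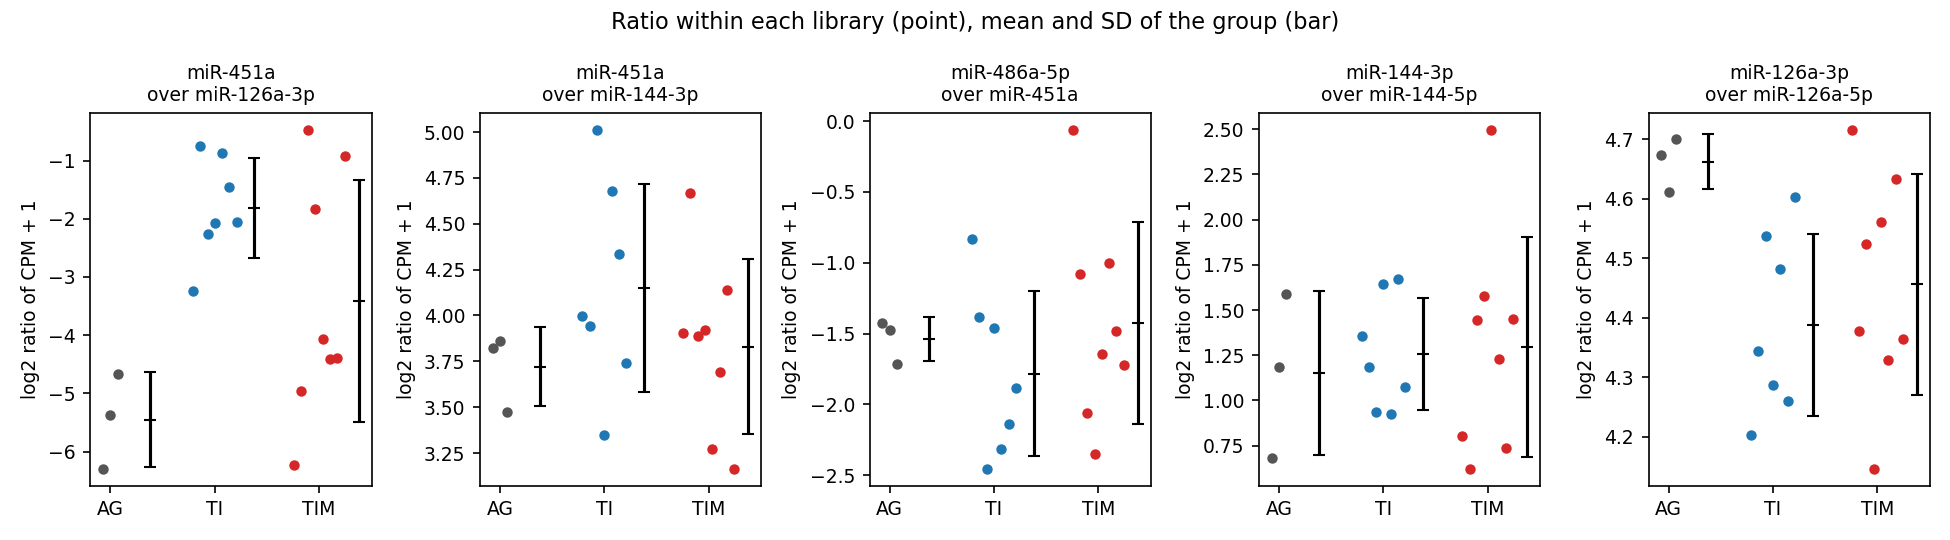
Log2 ratio of CPM + 1 between 2 miRNAs of the same library, with 1 point per library and a bar for the group mean and SD, for AG (n = 3), TI (n = 7) and TIM (n = 8). Each panel has its own axis. In the panel of miR-451a over miR-126a-3p all TI points lie above the AG points, while the TIM points spread from -6.24 to -0.47.

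The products of the same loci were read alongside. Of 8 relatives on the same or the opposite strand, 6 were in the table and 3 met the filter. One of these, miR-126b-3p, read from the strand opposite to miR-126a, met it only through the AG libraries, so its reads are given with no test. It had 23 to 36 reads in the AG libraries and 0 in all 15 tumor libraries. At a count of 0, up to 3 reads are allowed, which is 0.101 to 0.272 CPM in the tumor libraries, compared with 1.06 to 1.67 CPM in AG. miR-126b-5p, at 8 to 15 reads in AG, had at most 1 read in TI and 3 in TIM. miR-451b, opposite to miR-451a, had 0 reads in AG, at most 10 in TI and at most 1 in TIM. miR-486a-3p, the passenger strand of miR-486a, had a log2 fold change of -1.22 in TI (limma adjusted p = 0.060) and -0.97 in TIM (limma adjusted p = 0.13).

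Other miRNAs known from endothelium were lower as well. Of 6 such miRNAs, 6 fell in TI and 5 in TIM, with none higher, beside 29.3% and 25.9% of all tested miRNAs that were lower. Several share a cluster (miR-221-3p with miR-222-3p, and miR-23a-3p with miR-27a-3p and miR-24-3p), so the 6 are not independent. The median log2 fold change was -2.85 in TI and -2.63 in TIM, where the median of all tested miRNAs was -0.01 and 0.18. miR-139-5p, which sits in the gene Pde2a, fell by 3.38 in TI (limma adjusted p = 5.4e-06) and by 2.62 in TIM (limma adjusted p = 7.0e-05). miR-27a-3p, of the cluster with miR-23a and miR-24, fell by 2.91 (limma adjusted p = 0.00056) and by 2.93 (limma adjusted p = 0.00044). miR-24-3p fell by 1.17 in TI (limma adjusted p = 0.044), and in TIM had -0.60 (limma adjusted p = 0.30). Between TIM and TI none of the 6 was called. Their summed level was 18341 to 21040 CPM in AG, 4049 to 11101 CPM in TI and 4216 to 22834 CPM in TIM, and these miRNAs are also made in cells other than endothelium.

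Of 5 other miRNAs abundant in red cells, 1 rose and 2 fell in TI, and none rose and 2 fell in TIM, which is near the 55.8% and 51.4% called over all tested miRNAs. Their median log2 fold change was 0.78 in TI and -0.02 in TIM. miR-22-3p fell by 3.36 in TI and by 3.30 in TIM (limma adjusted p = 0.00016 in both). miR-25-3p had 0.78 and 0.64, and miR-92a-3p 1.43 and 1.37, with limma adjusted p-values from 0.055 to 0.30. miR-16-5p, named here after its values were seen, rose by 0.78 in TI (limma adjusted p = 0.011) and was lower in TIM than in TI by a log2 fold change of -0.80 (limma adjusted p = 0.013), the 1 call among the 5 in that comparison. miR-185-5p, also named after its values were seen, went the other way. It had -1.31 in TI (limma adjusted p = 0.011) and -0.99 in TIM (limma adjusted p = 0.047). These 5 miRNAs are made in most tissues. Their summed level was 10938 to 13743 CPM in AG, 4668 to 9218 CPM in TI and 4495 to 8207 CPM in TIM.

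Of 6 leukocyte miRNAs, 4 fell in TI and 5 in TIM, beside 29.3% and 25.9% of all tested miRNAs, and their median log2 fold change was -1.49 in TI and -1.44 in TIM. Both strands of miR-142a and of miR-223 are among the 6, which are thus not independent. The most abundant, miR-142a-5p, fell by 1.72 in TI (limma adjusted p = 0.025) and by 1.88 in TIM (limma adjusted p = 0.016). miR-150-5p, a lymphocyte miRNA, had -4.05 in TI (limma adjusted p = 0.00015) and -3.90 in TIM (limma adjusted p = 0.00018). miR-142a-3p had -1.17 in TI (limma adjusted p = 0.077) and -1.43 in TIM (limma adjusted p = 0.034). Their sum was 453 to 657 CPM in AG, 56.4 to 369 CPM in TI and 79.1 to 224 CPM in TIM, and none of the 6 was at 0 in any group. Of 4 miRNAs of smooth muscle and pericytes, 2 fell in TI and 4 in TIM, beside the same 29.3% and 25.9%, with medians of -1.56 and -2.05. These 4 are both strands of miR-143 and of miR-145a, and are not independent. Their sum overlapped between AG and TI, at 121588 to 209465 CPM in AG, 15822 to 171457 CPM in TI and 16046 to 101185 CPM in TIM. The most abundant of them, miR-143-3p, fell by 1.61 in TI (limma adjusted p = 0.042) and by 1.96 in TIM (limma adjusted p = 0.016). Of 4 neuronal and neuroendocrine miRNAs, miR-9-5p and miR-124-3p rose in both tumor types, where 26.4% and 25.5% of all tested miRNAs were higher, miR-9-5p by 3.82 in TI (limma adjusted p = 6.3e-07) and by 4.16 in TIM (limma adjusted p = 2.4e-07), and miR-375-3p and miR-7a-5p were not called. The summed level of these 4 was 45274 to 108206 CPM in AG, 32418 to 250110 CPM in TI and 43408 to 247553 CPM in TIM. The part of these cell types in the values of miR-126a and of the erythroid miRNAs was not tested.

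Finally, the miRNAs whose deviations from their group means were most like those of the 6 were listed over the 18 libraries, as a description, for miRNAs averaging 10 CPM or more. Those most like miR-451a were miR-144-5p (r = 0.96), miR-144-3p (r = 0.96) and miR-486b-5p (r = 0.93), so all 3 were products of the loci described above. Nearest to miR-486a-5p outside its own locus was miR-144-5p (r = 0.95). Those most like miR-126a-3p outside its own hairpin were miR-145a-3p (r = 0.90), miR-191-5p (r = 0.89) and miR-27a-5p (r = 0.87). For miR-126a-5p they were miR-191-5p (r = 0.90), miR-1188-5p (r = 0.88) and miR-145a-3p (r = 0.87). No erythroid miRNA was among the nearest of the endothelial pair. For the erythroid group only 3 places were listed per miRNA, all taken by products of its own loci. The absence of endothelial miRNAs there therefore decides nothing.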

How the data were processed

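Per the labels, RNA for the small RNA libraries was extracted from tissue with TRIzol, whereas the study's methods name the AllPrep kit for frozen tumors and organs, so the extraction is uncertain. The submitters' processing notes name cutadapt 2.8, Bowtie2 2.3.5.1 with mm10, featureCounts 2.0.0 and edgeR 3.40. For each mature miRNA the authors deposited a normalized signal per library, in CPM, after scaling the reads by TMM factors. The treatment of reads with several matches is not given in the sources used here. Deposited beside it, and not used, are the log2 fold changes, p-values and FDRs of the authors' own comparisons.

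Whole reads were recovered for 100% of the values (tolerance 0.01), and these reads served for read counts, shares, scalings, edgeR and DESeq2. The 6 miRNAs and all lists were chosen with earlier results of these data known. limma 3.58.1 (lmFit, eBayes with trend) in R 4.3.3 was run on log2(CPM + 1), a scale that understates the change of miRNAs with few reads, for the 726 miRNAs reaching 1 CPM in 3 or more libraries. One model held all 18 libraries, and calls were made at a Benjamini-Hochberg adjusted p-value under 0.05. Ratios and correlations were tested by exact permutation with Python 3.11.15, scipy 1.17.1 and numpy 2.4.6, two-sided by doubling the smaller tail. Besides the 6 miRNAs, the text gives values for the most abundant miRNAs of a list by mean CPM, at most 3. miR-16-5p, miR-185-5p, miR-126b-3p, miR-126b-5p and miR-451b were added after their values were seen. For each of the 6, the 3 miRNAs of most similar deviations are given as well. Alternatives were pseudocounts of 0.1 and 5, other scalings and filters, only the compared groups in the model, edgeR 4.0.16, DESeq2 1.42.0, and each library left out in turn. The procedure was tested on simulated data. None of the 52 pairs of libraries within groups was identical. Sequences were found for 4 of the 6 miRNAs.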

Additional observations from a re-analysis of the deposited data

How the results depend on the processing

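No paired analysis was possible because a column of the table names its group without the replicate number of the labels. The calls of miR-126a-3p and miR-126a-5p against AG were kept under every alternative and without any single library. Their log2 fold changes over the alternatives other than leaving out a library were -3.84 to -3.10 and -3.57 to -2.83 in TI, and -3.22 to -2.58 and -3.02 to -2.38 in TIM. None of the 4 erythroid miRNAs was called under any alternative, but their sizes moved. In TIM against AG, edgeR and DESeq2 gave -0.51 and -0.50 for miR-451a, -0.48 with both for miR-144-3p, and -0.64 and -0.65 for miR-144-5p, and on totals that omit miR-148a-3p miR-486a-5p had -0.43. Without the TMM factor 2 of the 6 were called between TIM and TI, the endothelial pair, where 155 of all 730 tested miRNAs were. In TI against AG, values near 0 changed sign: miR-451a to -0.21 without the TMM factor, and, on totals that omit miR-148a-3p, miR-144-3p to 0.087 and miR-486a-5p to 0.29. Without single libraries these values ran from -0.45 to 0.47, from -0.93 to 0.17 and from -0.64 to 0.14. The cause was not tested.

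Of all 726 miRNAs, TI and AG differed in 405, TIM and AG in 373, and TIM and TI in 38. The last count was 3 with edgeR, 122 with DESeq2, 21 with a pseudocount of 5, 17 with a filter of 10 CPM, 24 with only the compared groups in the model, and 155 without the TMM factor. Without single libraries the counts ran from 294 to 431, from 227 to 383 and from 24 to 68. They were lowest against AG without the AG library with 483 CPM of miR-451a. Between TIM and TI the count was 24 without the TI library with 210, 593 or 1571 CPM of miR-451a, 25 without the TIM library with 108 CPM, and 62 or 68 without the one with 1069 or 1207 CPM. The share of calls that were higher went in TI from 47.4% to 59.7% and in TIM from 49.6% to 66.4% on totals that omit miR-148a-3p, where the median of all miRNAs moved to 0.31 and 0.53. Between TIM and TI it went from 65.8% to 89.0% without the TMM factor and to 48.1% with median ratio scaling.

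With a pseudocount of 5 the log2 ratio differences of TIM against AG became -0.085 for miR-451a over miR-144-3p, -0.021 for the strands of miR-144 and -0.23 for those of miR-126a (exact permutation p = 0.048), and -0.031 for the strands of miR-144 between TIM and TI. The correlation of miR-451a and miR-126a-3p in TIM was 0.028 without the 2 farthest libraries. Without single libraries, miR-451a over miR-126a-3p ran for TI against AG from 3.21 to 4.02 (exact permutation p 0.024 to 0.056), for TIM against AG from 1.62 to 2.44 (exact permutation p 0.033 to 0.36) and for TIM against TI from -2.02 to -1.19 (exact permutation p 0.025 to 0.15). The strands of miR-126a ran for TI against AG from -0.31 to -0.24 (exact permutation p 0.024 to 0.056) and for TIM against AG from -0.24 to -0.16 (exact permutation p 0.033 to 0.22). With 2 AG libraries, the smallest p for TI is 0.056. Both differences of TIM from AG had their lowest p without the TIM library with 89.6 CPM of miR-451a, and that of TIM from TI without the one with 1926 CPM. In TIM against AG, miR-451a over miR-144-3p ran from -0.013 to 0.21 and miR-486a-5p over miR-451a from -0.081 to 0.25. The strands of miR-144 ran from -0.13 to 0.32 in TI against AG, from -0.092 to 0.36 in TIM against AG and from -0.13 to 0.13 between TIM and TI. Depth limits only the relatives with few reads.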
